A study of Drosophila melanogaster with 3 samples.

Results

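u-shaped (ush) encodes a zinc-finger protein of the Friend of GATA family, which binds GATA factors and changes what they do at their target genes. In the fly it is known for its partnership with the GATA factors Pannier, in the dorsal ectoderm, notum and heart, and Serpent, in blood cells. It is one of the genes needed for the germ band to retract, and its own transcription in the dorsal embryo is known to depend on Dpp signalling. Grain (grn) is another GATA factor of the fly, known from the posterior spiracles, which it helps to shape, and from motor axons, whose path it guides. GATA factors bind short sites whose core letters are GATA.

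The data were Grain ChIP-seq peak lists from whole embryos of Drosophila melanogaster aged 0 to 24 h, with male and female embryos pooled. The embryos came from a stable transgenic line that makes Grain fused at its C-terminus to eGFP, and the description of the samples names an anti-GFP antibody for the precipitation. Their antibody field says grn instead; the description is followed here. There was 1 group of 3 biological replicates, with no second genotype or treatment, and no control was analysed here. Every cell type and every stage of embryogenesis contributed to each sample, so a peak cannot be assigned to a tissue, and sites bound in few cells and sites bound weakly in many cells cannot be told apart.

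The peaks of ush were selected on the summit positions in the authors' lists. A peak was counted when its summit lay in the body of ush (FBgn0003963, chr2L:476220-540560 of dm6, plus strand) or within 1000 bp upstream of its 5' end. This gave 30 of the 6580 peaks of the optimal list, which is 0.456% of that list. The optimal list is the authors' list cut by agreement between replicates, and it holds the 6580 peaks of highest signal in the list pooled over replicates. A single member need not recur. Of the 6580, 557 overlapped one of the 6580 strongest peaks of only 1 replicate, and 27 of none. In the pooled list, called on all replicates together, 65 of 30000 peaks lay in ush. The replicates' own lists, also of 30000 peaks each, placed 64, 76 and 69 summits there in replicates 1, 2 and 3. ush was chosen for its many peaks, so the counts of its peaks and their signals are a description and carry no test. The 30 optimal peaks are numbered here by pooled signal, with peak 1 the strongest.

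The sequence at the summits was searched on both strands for 4 GATA hexamers. These are AGATAA and its variant AGATAG, and TGATAA and its variant TGATAG, and the usual site of a GATA factor contains one of them. Of the 30 ush summits, 16 had such a hexamer within 50 bp. The 101 bases centred on the summit are printed for the 5 strongest peaks, in 5′ to 3′ order on the plus strand, from release 6 of the RefSeq genome (dm6). Hexamers are in capitals, and a hexamer on the minus strand is printed as its reverse complement (TTATCA for TGATAA). Peak 1 (chr2L:521104-521204), peak 2 (chr2L:523278-523378), peak 3 (chr2L:481052-481152), peak 4 (chr2L:495497-495597) and peak 5 (chr2L:516381-516481) read as follows.
ush peak 1: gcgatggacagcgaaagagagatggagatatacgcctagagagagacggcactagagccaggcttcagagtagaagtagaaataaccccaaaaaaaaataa
ush peak 2: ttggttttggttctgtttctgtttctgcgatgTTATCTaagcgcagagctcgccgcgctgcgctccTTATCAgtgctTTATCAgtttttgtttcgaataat
ush peak 3: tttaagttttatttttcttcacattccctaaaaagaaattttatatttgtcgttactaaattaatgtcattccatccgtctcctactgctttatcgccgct
ush peak 4: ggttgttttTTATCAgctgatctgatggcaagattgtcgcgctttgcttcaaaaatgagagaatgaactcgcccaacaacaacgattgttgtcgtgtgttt
ush peak 5: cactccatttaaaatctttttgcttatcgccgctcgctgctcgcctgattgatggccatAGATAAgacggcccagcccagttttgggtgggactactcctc

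The 5 strongest summits differed in these letters. Peaks 1 and 3 held no hexamer, and peak 2 held 3, all on the minus strand, the most of any ush summit. Peaks 4 and 5 held 1 each, with the nearest centre 38.5 bp and 11.5 bp from the summit. The GC content of the windows was 44.6%, 43.6%, 30.7%, 41.6% and 51.5% in peaks 1 to 5. Some weaker peaks had no hexamer, and others had 1 farther from the summit, such as peak 12 at 37.5 bp. Those windows are not printed. A further 7 windows, all with a hexamer and chosen after their values were seen, show other arrangements among weaker peaks: a hexamer next to the summit, or a pair. They are peak 7 (chr2L:524726-524826), peak 11 (chr2L:497742-497842), peak 14 (chr2L:507365-507465), peak 16 (chr2L:484813-484913), peak 18 (chr2L:510612-510712), peak 19 (chr2L:493403-493503) and peak 20 (chr2L:505113-505213), on the plus strand of dm6.
ush peak 7: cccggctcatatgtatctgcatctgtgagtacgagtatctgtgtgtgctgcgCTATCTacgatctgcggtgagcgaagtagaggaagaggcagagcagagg
ush peak 11: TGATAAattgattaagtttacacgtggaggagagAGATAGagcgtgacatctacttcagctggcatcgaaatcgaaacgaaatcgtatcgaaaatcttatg
ush peak 14: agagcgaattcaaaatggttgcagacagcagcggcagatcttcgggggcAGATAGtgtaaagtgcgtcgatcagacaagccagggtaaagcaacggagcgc
ush peak 16: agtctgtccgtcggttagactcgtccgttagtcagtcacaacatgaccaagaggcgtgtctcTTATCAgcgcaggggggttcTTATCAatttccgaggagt
ush peak 18: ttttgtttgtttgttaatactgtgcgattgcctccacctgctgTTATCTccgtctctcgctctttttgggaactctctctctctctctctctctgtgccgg
ush peak 19: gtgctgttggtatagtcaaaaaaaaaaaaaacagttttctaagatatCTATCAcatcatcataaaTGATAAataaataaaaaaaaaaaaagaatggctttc
ush peak 20: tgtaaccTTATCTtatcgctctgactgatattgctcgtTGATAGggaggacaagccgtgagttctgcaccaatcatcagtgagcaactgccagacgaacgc

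Among these 7, the nearest hexamer centre lay 0.5 bp from the summit in peak 19, 1.5 bp in peak 14, 4.5 bp in both peak 7 and peak 18, and 9.5 bp in peak 20. Peak 16 carried its pair of TGATAA copies on 1 side of the summit, the nearer at 14.5 bp. Peak 11 carried TGATAA at the edge of the window and AGATAG at 13.5 bp.

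Peaks lay along most of the transcription unit, which spans 64.3 kb and has 4 start sites. The first, shared by transcripts ush-RD and ush-RE, is taken as position 0. That of ush-RB is at 14.6 kb, and those of ush-RA and ush-RC are at 47.2 and 47.5 kb. Of the 30 optimal summits, 28 lay in introns and 2 in exon 2. Introns are counted between merged exons of all transcripts. The second intron, 32.1 kb long, held 20 summits, 13 of them with a hexamer. The first intron, 13.2 kb long, held 5 summits, 1 with a hexamer. The third intron, 1.3 kb long, held 1 summit, which had a hexamer. The fourth intron, 10.6 kb long, held 2, neither with a hexamer. No summit lay in exons 3 to 10 or in the upstream 1000 bp. Among the 3 introns over 10 kb, the second had 6.23 optimal summits per 10 kb, the first 3.79 and the fourth 1.89. Hexamers of any position numbered 3.83 per kb in the second intron, 1.9 per kb in the first and 2.17 per kb in the fourth. Intron 3, which is short, had 7.51 summits per 10 kb, from its single summit, and 3.75 hexamers per kb.

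**Figure D1:**
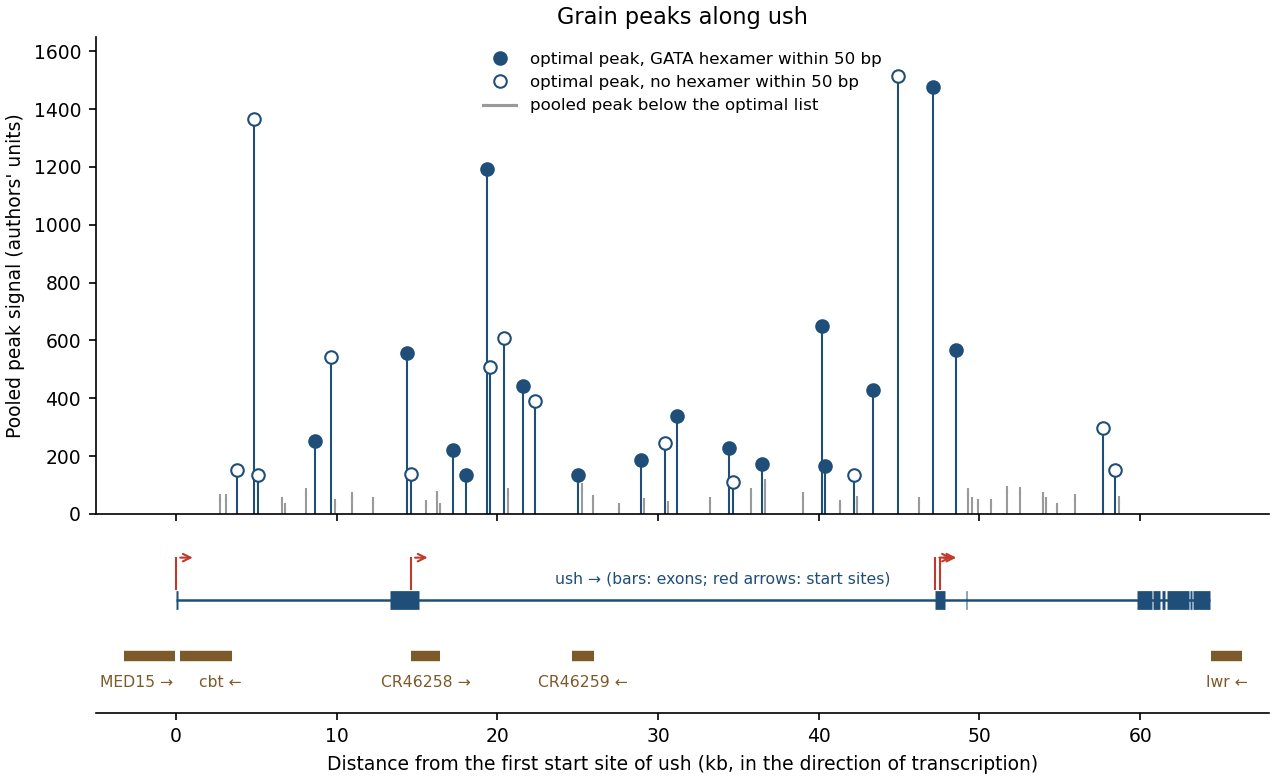
Pooled peak signal, in the authors' units, of each peak in ush against distance in kb from the first start site, above a map of ush exons, start sites and neighbouring genes. Filled circles are the 16 optimal peaks with a GATA hexamer within 50 bp of the summit, open circles the 14 without, and grey ticks the 35 pooled peaks below the optimal list; the strongest peaks, between 1194 and 1515, lie at 4.9, 19.3, 44.9 and 47.1 kb.

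The 4 strongest peaks lay at 3 places in the gene, with peaks 1 and 2 as neighbours at 44.9 and 47.1 kb. Peak 1 (chr2L:520387-521567, 44.9 kb from the first start site) had a pooled signal of 1515, in units the authors do not define, and was the 6th strongest peak of the pooled list. Its summit lay in the second intron, 2312 bp upstream of the start site of ush-RA. Peak 2 (chr2L:521990-523922, 47.1 kb) had a signal of 1476 and rank 8, and its summit lay 138 bp upstream of that same start site. It was the only optimal summit within 500 bp of the start sites of ush-RA and ush-RC.

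Peak 3 (chr2L:480861-481380, 4.9 kb) had a signal of 1367 and rank 11, in the first intron. The start site nearest to it was not one of ush but that of cabut (cbt), a gene for a zinc-finger transcription factor that is nested in the first intron on the opposite strand. That start site lay 1414 bp from the summit, and the nearest start site of ush 4882 bp. Peak 4 (chr2L:495197-497238, 19.3 kb) had a signal of 1194 and rank 16. Its wide interval also held the summits of peaks 6 and 10, and 10 hexamers in all.

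Below these 4 the signal dropped to 649 in peak 5 (chr2L:516258-516814, 40.2 kb, rank 158), and the remaining 25 peaks ranged downwards to 111. The weakest, peak 30 (chr2L:510632-511091, 34.6 kb), ranked 6518. The median signal was 275 for the 30 ush peaks and 176 for all 6580 optimal peaks. Of the 30, 20 were above the median of the whole optimal list and 15 were in its strongest 25%. There were 4 ush peaks among the 25 strongest pooled peaks of the genome, and 14 among the 1000 strongest. The optimal list is a cut on pooled signal at 110. All 6580 of its peaks, the 30 of ush included, had the same −log10 q-value, 4.21, so q-values gave no order among them.

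The start of ush itself had no optimal peak. No optimal summit lay within 500 bp of the ush-RD and ush-RE start site, and the first summit inside the gene was 3.8 kb from it. That summit, peak 24, had a signal of 151 and lay 351 bp upstream of the start site of cbt. Near the ush-RB start site there were 2 summits in 1 interval, both in the 5' UTR of ush-RE. Peak 8 had a signal of 555 and lay 241 bp upstream of the start site, and peak 25 had a signal of 138 and lay 23 bp upstream of it. In all, 4 of the 30 ush summits (13.3%) lay within 500 bp of any annotated start site, against 39.7% of all optimal summits. The other 26 were more than 1000 bp from any start site, and 14 of these 26 had a hexamer. The hexamer share over all optimal summits that far from a start site is not given here.

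Peak position does not tell which gene a bound site serves. The nearest start site belonged to ush for 10 of the 30 summits, to a long non-coding RNA gene inside ush (lncRNA:CR46258 or lncRNA:CR46259) for 14, to cbt for 4, and for 2 to lwr, the neighbour past the 3' end, which encodes the SUMO-conjugating enzyme. The start site of ush-RB is also one of lncRNA:CR46258, and summits nearest to it were counted for ush. Only peak 28, at 25 kb with a signal of 135, had its summit inside the body of a nested gene, lncRNA:CR46259. Counting only the 10 summits nearest to ush, a rule added after the data were seen, left 6 with a hexamer.

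Gaps between summits varied, and whether the summits form groups was not tested. The median gap between neighbouring optimal summits was 1306 bp, with a range of 200 to 9130 bp over 29 gaps, and on average there was 1 summit per 2.18 kb. With summits no more than 2000 bp apart joined into a run, a distance chosen after the positions were seen, there were 10 runs. The largest, from 17.2 to 22.4 kb, held 7 summits, including peak 4, and 4 of the 7 had a hexamer. The next, from 40.2 to 44.9 kb, held 5, including peaks 1 and 5, and 3 of the 5 had a hexamer. Peaks 2 and 7 formed a run from 47.1 to 48.6 kb across the ush-RA and ush-RC start sites, and both had a hexamer. In the run of 3 around peak 3, from 3.8 to 5.1 kb, and the run of 2 in the fourth intron, from 57.7 to 58.5 kb, no summit had one.

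At the edges of the rule, the first summit inside at the 5' end lay 4819 bp within the upstream edge, with a signal of 151, and the nearest optimal summit outside it lay 2777 bp away with a signal of 199. At the 3' end the last summit inside had a signal of 153 and lay 5888 bp before the end of the gene. The first outside had a signal of 181 and lay 141 bp past it, nearest to lwr. The strongest pooled peak of ush below the optimal list, at 36.7 kb, had a signal of 107, rank 6795 and no hexamer.

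The GATA hexamer was present within 50 bp of 16 of 30 ush summits (53.3%), against 46.2% of all optimal summits. In equally wide windows, shifted 500 bp to the right, it was present in 6 of 30 (20%) for ush, against 18.5% for all optimal peaks. In windows 500 bp to the left it was present in 9 of 30 (30%) for ush, and the share over all optimal peaks there is not given here. The ush share at summits was near that of the whole list, so it is not a feature particular to ush. These shares were not adjusted for distance to a start site. Within 500 bp of one lay 13.3% of ush summits and 39.7% of all optimal summits. By form, TGATAA was at 8 ush summits, AGATAA at 6, AGATAG at 4 and TGATAG at 2. There were 22 copies, 10 on the plus and 12 on the minus strand, and 5 summits (16.7%) had 2 or more, against 14.2% of all optimal summits.

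Among the summits with a hexamer, which by the choice of window lies within 50 bp, the median distance from the summit to the nearest hexamer centre was 14 bp for the 16 ush summits and 17.5 bp over all optimal summits with a hexamer. The centre was within 10 bp in 6 of the 16 and within 25 bp in 11. The whole locus of 65.3 kb held 184 hexamers, or 2.82 per kb, against 1.95 per kb on the main chromosome arms. Of the 184, 22 (12%) lay within 50 bp of an optimal summit, in windows that cover 4.64% of the locus. The density was 7.26 per kb inside those windows and 2.6 per kb in the rest of the locus, so most hexamers of ush had no optimal summit beside them.

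**Figure D2:**
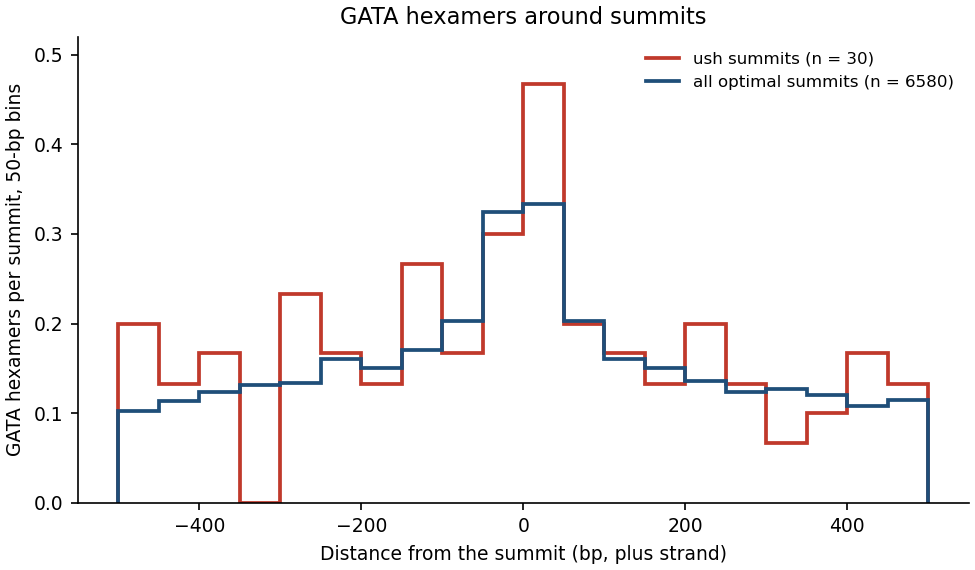
GATA hexamers per summit in 50-bp bins against distance from the summit in bp, for the 30 ush summits (red) and all 6580 optimal summits (blue). Both are highest next to the summit, with 0.467 copies per ush summit and 0.333 per optimal summit in the bin from 0 to 50 bp.

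Hexamers were at strong and weak ush peaks, and how their shares compared depended on where the peaks were divided. Of the 15 stronger peaks 8 had a hexamer, and of the 15 weaker peaks also 8. Divided at the middle of the whole optimal list, rank 3290, 12 of the 20 ush peaks above it (60%) and 4 of the 10 below it (40%) had one. The shares of all optimal peaks above and below that rank are not given here. The median signal was 296 for the 16 peaks with a hexamer and 272 for the 14 without. In peak 3 the nearest hexamer was 276.5 bp from the summit and the interval held none, whereas in peak 1 the nearest was 82.5 bp away and the interval held 5. Of the 14 summits without a hexamer, 9 held the 4 letters GATA, which were at 25 of 30 ush summits (83.3%) and 77.9% of all optimal summits. Among the 35 pooled ush peaks below the optimal list, 7 (20%) had a hexamer. The flank windows of the optimal ush peaks had one in 20% to the right and 30% to the left. The share over all pooled peaks below the optimal list is not given here. Letters bound by other factors were at few ush summits. The GAGA letters GAGAG were at 6 of 30 ush summits (20%) and 15% of all optimal summits. The homeodomain core TAATTA was at 2 (6.67%), against 5.76%, and the E-box CAGCTG at 2 (6.67%), against 4.76%. The Zelda letters CAGGTAG, the STAT letters TTCNNNGAA and the DREF letters TATCGATA were at none, against 0.851%, 2.04% and 1.34% of all optimal summits.

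The replicates placed these peaks alike. With the 6580 strongest peaks taken from each replicate list, so as to match the optimal list in length, 28, 27 and 30 of the 30 optimal ush peaks overlapped a peak by at least 1 bp in replicates 1, 2 and 3. The mean share found was 94.4% ± 5.1 for ush peaks and 86.2% ± 4.24 for all optimal peaks (SD, n = 3 each). All 3 replicates held 25 of the 30 ush peaks (83.3%), against 67.8% of all optimal peaks, and the other 5 were held by 2 replicates. The optimal list was made from these same replicates, so this recurrence is partly built in and no test was made of it. The ush peaks also had a higher median signal, 275 against 176, and the shares were not adjusted for signal.

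Overlap is generous where several summits share an interval, as 11 of the 30 ush peaks do. The stricter counts below cover ush peaks only, so no share over all optimal peaks stands beside them. By a stricter count added after the data were seen, 21 of 30 had a summit within 100 bp among the strongest 6580 of all 3 replicates, 7 of the 11 on shared intervals and 14 of the 19 on an interval of their own. In the whole lists, 26 of 30 had one in all 3 replicates. The 4 that did not, peaks 16, 21, 29 and 30, missed in replicate 2, and the reason was not tested. The median distance from an ush summit to the nearest replicate summit was 9, 25.5 and 11 bp in replicates 1, 2 and 3, a mean of 15.2 ± 9 bp, and 15.7 ± 7.37 bp for all optimal summits (SD, n = 3 each).

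The order of strength within ush was also similar. Peak 1 ranked 6, 8 and 4 in replicates 1, 2 and 3, a mean rank of 6 ± 2 (SD, n = 3). Peak 3 ranked 12, 9 and 9, a mean of 10 ± 1.73. Peak 4 ranked 18, 39 and 14, a mean of 23.7 ± 13.4. These 3 peaks were in the 100 strongest of every replicate, and peak 3 varied least. Peak 2 ranked 8, 162 and 3 by the nearest summit, a mean of 57.7 ± 90.4, and in replicate 2 the strongest peak that overlapped it ranked 17. Peak 5 ranked 153, 345 and 154, a mean of 217 ± 111. So replicate 2 ranked peaks 2, 4 and 5 lower than the others did.

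Several weaker peaks had widely spread ranks and others did not. Peak 12, whose nearest hexamer centre is 37.5 bp from the summit, ranked 1129, 2691 and 180 in replicates 1, 2 and 3. Peak 18 ranked 1690, 7600 and 1506, and peak 27 ranked 9382, 6003 and 3235. Peak 24 ranked 3870, 4045 and 3625, a mean of 3850 ± 211 (SD, n = 3). Peak 16 ranked 1458, 1262 and 1708, a mean of 1480 ± 224 (SD, n = 3), but its rank in replicate 2 is of an overlapping peak with its summit 105 bp away. Peak 25, at the ush-RB start site, ranked 2987, 25964 and 8456 by the nearest summit, so only replicate 1 placed a summit of its own there among its strongest 6580. Over the peaks with a summit within 100 bp in both lists, Spearman's rho of the ranks was 0.88 between replicates 1 and 2 (26 peaks), 0.92 between 1 and 3 (30 peaks) and 0.82 between 2 and 3 (26 peaks). These are descriptions over peaks of 1 gene that were chosen from the pooled data of the same libraries.

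**Figure D3:**
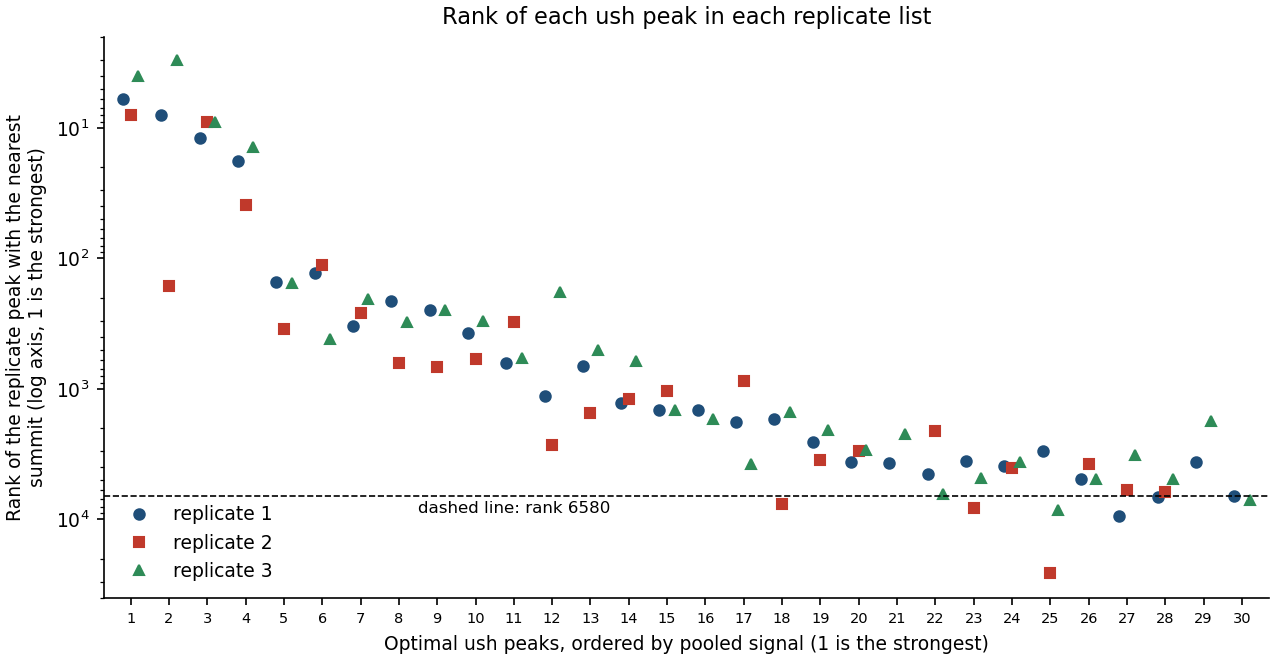
Rank, on a log axis with the strongest at the top, of the replicate peak whose summit is nearest to each of the 30 optimal ush peaks, in replicates 1 (circles), 2 (squares) and 3 (triangles); no point is drawn where that summit is over 100 bp away, as for peaks 16, 21, 29 and 30 in replicate 2. The dashed line is rank 6580, and peaks 1, 3 and 4 rank between 4 and 39 in all replicates.

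The replicates' own summits gave the hexamer a similar place. Among their 6580 strongest peaks, replicates 1, 2 and 3 had 30, 36 and 32 summits in ush, a mean of 32.7 ± 3.06 (SD, n = 3). A hexamer was within 50 bp of 16 (53.3%), 16 (44.4%) and 17 (53.1%) of them, a mean of 50.3% ± 5.08. In the window 500 bp to the right it was present in 7 (23.3%), 5 (13.9%) and 6 (18.8%), a mean of 18.7% ± 4.7. To the left it was present in 7 (23.3%), 11 (30.6%) and 7 (21.9%). The share at the summit was higher than in the right flank in 3 of 3 replicates, by a mean of 31.6 ± 2.38 percentage points. Shares over all 6580 strongest peaks of each replicate are not given here. Over the whole optimal list they were 46.2% at summits and 18.5% to the right, so a higher share at the summit is not particular to ush. Over the whole replicate lists the mean difference was 15.7 points. An exact sign-flip permutation test over the 3 replicates gave p = 0.25, two-sided, which is the smallest p that 3 pairs allow. The replicates read largely the same sites of 1 gene. The SD therefore reflects differences between the 3 replicates, not a spread over independent sequences. The p is 0.25 for any 3 differences of the same sign, whatever their size.

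ush had more optimal summits than any other protein-coding gene, 30 against 22 for the next, although it ranked 198 by length. It was also first in the 6580 strongest peaks of each replicate, with 30, 36 and 32 summits, against at most 20, 22 and 24 in any other gene. In the whole pooled list, which holds the weaker peaks as well, it was 7th with 65 summits, and the highest other gene had 114. The genes most like it in number of optimal summits were schnurri (shn) with 22, jing with 21, bunched (bun) with 20 and Svil with 18. shn encodes a zinc-finger repressor that acts with the Smads of the Dpp pathway, jing a zinc-finger transcription factor, bun a protein of the TSC-22 family and Svil a supervillin. Of these 5 genes ush had 4 peaks among the 25 strongest pooled peaks and the other 4 genes had 0. Among the 1000 strongest, ush had 14, shn 6, bun 5, jing 2 and Svil 1.

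Length bears on such counts, since jing spans 120.8 kb, Svil 122.6 kb, bun 92.1 kb and shn 59.3 kb with their upstream 1000 bp, against 65.3 kb for ush. Per 10 kb, ush had 4.59 optimal summits, shn 3.71, bun 2.17, jing 1.74 and Svil 1.47. Among the 629 protein-coding genes at least 0.5 times as long as ush, it came second. The highest was grn itself, with 4.85 per 10 kb from 17 summits, and the median of these genes was 0.23.

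**Figure D4:**
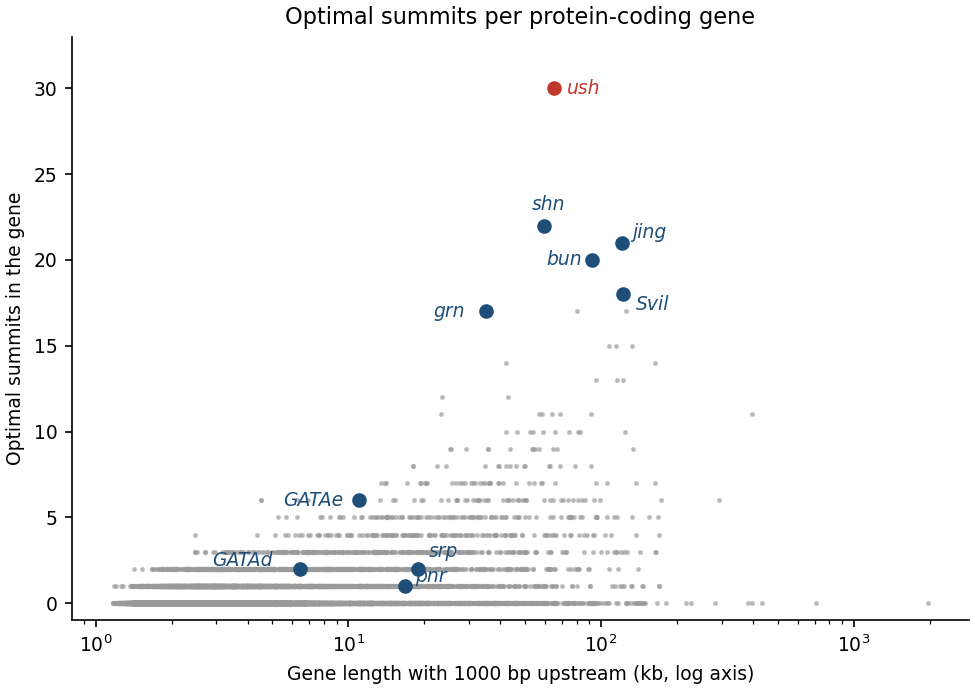
Optimal summits in each protein-coding gene against gene length in kb with the upstream 1000 bp, on a log axis, with ush in red and grn, the other GATA factor genes and the genes closest to ush in number in blue. ush lies highest, at 30 summits, with shn at 22, jing at 21, bun at 20 and Svil at 18.

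Genes known to act with ush, with GATA factors or in the same tissues were listed with earlier results of these data known. Of 36 genes on 6 lists, 22 (61.1%) had at least 1 optimal summit, against 25.5% of the 13945 protein-coding genes. The median length of the listed genes was 7618 bp, against 3166 bp for all protein-coding genes, and longer genes can hold more summits, and the share was not adjusted for length. With the upstream 1000 bp left out, 14 of the 36 (38.9%) had a summit, against 15.5% of all protein-coding genes. All 5 GATA factor genes had a summit. grn had 17, with a strongest signal of 796, GATAe had 6 (353), GATAd 2 (321), serpent (srp) 2 (549) and pannier (pnr) 1 (666). srp and pnr encode the GATA factors that Ush is known to bind, and both had far fewer summits than ush, which was chosen for its many peaks. With the upstream 1000 bp, srp spans 18934 bp and pnr 16718 bp, against 65341 bp for ush.

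Of the 5 genes for proteins known to work with Ush or with its GATA partners, 4 had a summit. The corepressor gene CtBP had 2, with a strongest signal of 363. Mi-2, the ATPase of the nucleosome remodelling and deacetylase complex, had 4 (256), and MTA1-like, of the same complex, had 1 (142). The corepressor gene CoRest had 1 (300), and Chip (Chi), which encodes a cofactor of LIM-homeodomain proteins, had none.

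Among 10 genes of the Dpp pathway with its target zen, 6 had a summit. The ligand gene dpp had 6 (strongest signal 933), its type I receptor gene tkv 9 (804) and its type II receptor gene punt (put) 1 (280). The Smad genes Mad and Med had 1 each (193 and 188), and shn had 22 (957). The second ligand gene scw, the receptor gene sax, the repressor gene brk and zen had none. The strongest signals of dpp, tkv and shn all lay below those of ush peaks 1 to 4, but ush was chosen for its peaks, so this order is only a description.

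Of the other genes needed for germ band retraction, tup, a LIM-homeodomain gene, had 2 summits (187), srp had 2, and peb, the gene of the zinc-finger protein Hindsight, had none. Of 8 notum and heart genes, 5 had a summit. wingless (wg) had 2 (169), tinman (tin) 1 (167), and the T-box genes Doc1, Doc2 and Doc3 had 1 (141), 2 (148) and 1 (259). The bristle genes ac and sc and the heart gene Hand had none. Of 7 blood cell genes, 2 had a summit, srp and gcm2, the last with 2 (350). The blood genes lz, gcm, Hml, PPO1 and PPO2 had none, so the blood list, at 28.6%, was close to the 25.5% of all protein-coding genes.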

How the data were processed

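The deposited files are peak lists in narrowPeak format for dm6 and dm3, of which the dm6 lists were used. The authors' lists carry a signal per peak, on an undefined scale that differs between lists, and a deposited −log10 q-value with 1 upper limit per list. The deposited offset in bp from the peak start gave each summit. Lists for each replicate and for the pooled replicates were made with a control file, per the file headers. Which aligner and peak caller were used is not given in the sources used here. The lists hold no read counts, so depth is unknown and no counting interval is given. Fragments of 200 to 800 bp came from sonication, per the labels.

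Signals were ranked within a list only. Positions count from 1. Genes are those of Ensembl release 115, whose ush coordinates matched RefSeq. No peak ran past the end of an arm. Python 3.11.15, numpy 2.4.6, pandas 2.3.3, scipy 1.17.1 and matplotlib 3.10.9 were used, and the counting steps were tested on simulated peaks. The members and lists were chosen with earlier results of these data known. CoREST is spelled CoRest in the annotation. Genes named are ush, the GATA factor genes, the 4 other genes with most optimal summits, and list members. Other genes are named by their neighbourhood. Within ush the 5 strongest peaks, the weakest, those near an ush start site and the strongest pooled peak below the optimal list are described. Other peaks were named after their values were seen. Alternatives changed the gene boundaries, the window, the overlap, the list depth and the replicates included.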

Additional observations from a re-analysis of the deposited data

How the results depend on the processing

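The 30 optimal summits in ush ranged between 20, in the strongest 3290 optimal peaks, and 42, with 2 times as many pooled peaks, and between 25 and 28 without 1 replicate. Counting only summits nearest to an ush start site, added after the data were seen, gave 10, with 6 bearing a hexamer in place of 16. The 4 letters GATA alone gave 25. Windows of 25 and 100 bp either side gave 11 and 23. The mean number of ush summits in a replicate, 32.7, became 21.7 with the strongest 3290 peaks and 69.7 with whole lists. The density of 4.59 per 10 kb became 3.06 in the strongest 3290 peaks. Listed genes with a summit fell to 14, against 22, when the upstream 1000 bp was left out. Summits held by all 3 replicates numbered 17 when an overlap of at least 0.5 of the peak was required, against 25. Without 1 replicate the mean replicate count was 31 to 34, and the summit-flank difference 30.3 to 32.5 points. That difference, 31.6 points, was 25 with the flank to the left and 15.7 over the whole replicate lists. Peak lists without read counts limit every value to position and rank.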
